A study of Mus musculus with 46 samples.

Results

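Gene expression was compared between the cecum of mice fed a high-fat diet containing acylated inulin and the cecum of mice fed a low-fat diet. The comparison used 10 arrays, 5 of each diet, out of 22 cecum arrays and 46 arrays in the whole series. The 10 arrays were chosen by the tissue and diet in their labels alone. All mice were male C57BL/6, an inbred strain, 12 weeks old when the diets began and 20 weeks old when tissue was taken after 8 weeks of feeding. The low-fat diet (LFD) gave 10% of its energy as fat. The acylated inulin diet (HFD + inul PB) gave 45% of its energy as fat and held 2 inulin esters, inulin propionate and inulin butyrate, each at 5% by weight. The remaining cecum arrays came from mice on the same high-fat diet with no added fiber (HFD, 6 arrays) or with plain inulin (HFD + inulin, 6 arrays). HFD + inul PB and LFD differed at once in fat, in digestible carbohydrate, in cellulose and in the inulin esters, and the parts of these in any difference cannot be told apart.

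Inulin is a fructose polymer that mammalian enzymes leave largely intact and that gut bacteria ferment. Propionate and butyrate bound to it as esters are freed in the large bowel, and both are short-chain fatty acids that the gut lining takes up. The cecum is the main fermentation chamber of the mouse. Its lining consists mostly of absorptive cells, which take up water, salt and short-chain fatty acids, and of goblet cells, which secrete the mucus that keeps bacteria away from the surface.

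RNA of each sample came from a piece of whole cecum, carried a Cy3 label and was put on an Agilent mouse array by itself. Values below are log2 signal intensities after normalisation, in which a difference of 1 unit is a 2-fold change. In such bulk tissue, fewer cells of a type and less RNA per cell cannot be told apart. The labels number the arrays of a diet from 1 to 5 but do not name the animal behind each. P values therefore measure the spread between arrays of the same diet, taken over all 22 cecum arrays. Of the 55681 different probes, 49.4% to 55.0% were well above background on each HFD + inul PB array and 51.9% to 55.1% on each LFD array. No spot was saturated. Any pair of the 10 arrays correlated with r between 0.973 and 0.988 across probes. All 16 goblet cell markers and all 19 absorptive cell markers measured were well above background on each array of 1 or both diets. The same held for 1 of 6 pancreatic acinar markers, 2 of 5 hepatocyte markers and 4 of 5 small intestine markers. The mean log2 signal of the small intestine markers was 8.69 on LFD 4, 12.31 on LFD 2 and 11.05 on HFD + inul PB 5. Within their diets, LFD 2 and HFD + inul PB 5 had the highest such means. These arrays were also the highest of their diets for the lipid uptake and antimicrobial defence groups. Whether the pieces held small intestine was not tested.

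LFD 4 stood apart from the other LFD arrays. Its mean log2 signal over 9 fat cell genes was 6.71, against 11.10 to 12.64 on the other LFD arrays, and on HFD + inul PB arrays this mean ran from 6.69 to 10.27. Counts over all probes and over known genes are therefore also given without LFD 4, as are some group counts and differences.

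The criteria for a changed probe ID were a fold difference over 1.5 and an unadjusted LIMMA P under 0.01. By these, 1214 of 55681 probe IDs (2.18%) differed between HFD + inul PB and LFD. Of these, 554 (0.995%) were higher and 660 (1.19%) lower in HFD + inul PB, so that 45.6% of the changed probe IDs were higher. The split depended on the normalisation, since scaling each array to its 75th percentile gave 781 higher and 499 lower (61.0% higher) and moved the median of all probes up by 0.11. After Benjamini-Hochberg adjustment over all probes, 746 probe IDs (1.34%) had an adjusted P under 0.05, 302 higher (0.542%) and 444 lower (0.797%). Without LFD 4, 1545 probe IDs (2.77%) met both criteria and 763 (1.37%) passed after adjustment, with 1056 and 593 of them respectively also among those found with all arrays. The count after adjustment rested on most of the other arrays too. Leaving out another array gave 317, 474, 285, 334 and 225 without HFD + inul PB 1 to 5, and 152, 294, 428 and 208 without LFD 1, 2, 3 and 5.

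Known genes were represented by 1 probe each, that with the highest mean signal. Of 19296 such genes, 602 (3.12%) met both criteria, with 233 (1.21%) higher and 369 (1.91%) lower, and the median difference of all of them was -0.01. After adjustment 439 (2.28%) passed, 178 (0.922%) higher and 261 (1.35%) lower. Without LFD 4 both criteria were met by 782 (4.05%), 292 (1.51%) higher and 490 (2.54%) lower. For 1856 of the 19277 with a value on every array (9.63%), the values of one diet lay wholly beyond those of the other, higher in HFD + inul PB for 817 (4.24%) and lower for 1039 (5.39%). These percentages are the background for the counts in the gene groups below. In those groups, "rose" and "fell" are used of genes that met both criteria.

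The largest rises at strict criteria were those of a germ cell gene and of a secreted ribonuclease. Among the 93 genes that were higher by the strictest criteria (detected, adjusted P under 0.05, fold over 1.5, no overlap between the diets, and P under 0.01 without LFD 4), Tex19.1 had the largest difference. Tex19.1 encodes a protein of germ cells and placenta that restrains mobile genetic elements. Its log2 signal was 11.09, 11.35, 10.57, 10.65 and 11.09 on HFD + inul PB 1 to 5 and 6.72, 5.84, 7.48, 9.32 and 7.27 on LFD 1 to 5. The diets did not overlap, which the criteria required, and LFD 4 was the highest of the LFD arrays. The difference was 3.63 ± 0.59 (SE), or 12.3-fold (adjusted P = 0.00514), and 4.12 without LFD 4.

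Ang4, a ribonuclease secreted by Paneth and goblet cells that kills bacteria, had the second largest rise. It measured 13.24, 14.06, 13.13, 13.30 and 13.52 on HFD + inul PB 1 to 5 and 9.74, 10.99, 10.49, 10.61 and 10.02 on LFD 1 to 5. Every HFD + inul PB array was above every LFD array by a wide margin. The rise was 3.08 ± 0.34, or 8.43-fold (adjusted P = 0.000187), 3.14 without LFD 4, and 2.63 to 3.28 within the 3 slides. Its relative Ang2 rose 3.66-fold (1.87 ± 0.19, adjusted P = 7.7e-05), from 8.67, 9.58, 9.23, 9.42 and 9.14 in LFD to 10.82, 11.59, 10.92, 11.05 and 11.01 in HFD + inul PB. The genes of this family are close in sequence, and probes for one may bind transcripts of another.

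Other large rises belonged to genes of varied roles. Duoxa2, which brings the hydrogen peroxide-producing oxidase DUOX2 to the cell surface, read 10.79, 10.79, 12.04, 12.29 and 12.51 in HFD + inul PB and 9.95, 9.89, 10.01, 9.87 and 9.39 in LFD. Its rise of 1.86 ± 0.38 (3.63-fold, adjusted P = 0.0204) differed by slide, being 0.87 on slide 1, 2.03 on slide 2 and 2.77 on slide 3. HFD + inul PB 1 and 2, the arrays of slide 1, were the lowest of their diet. A second Duoxa2 probe rose by 2.62. Casr, the calcium-sensing receptor, rose 4.63-fold (2.21 ± 0.48), and Gnal, a G protein alpha subunit, 3.62-fold (1.86 ± 0.30). Gnal lay between 10.11 and 10.50 in HFD + inul PB and between 8.02 and 8.79 in LFD. Ttll9, a tubulin-modifying enzyme, rose 6.26-fold (2.65 ± 0.51), with LFD 4 at 10.56 close to the lowest HFD + inul PB array at 11.01. Cd84, a receptor of blood cells, rose 4.17-fold by the probe with the highest signal, while a second probe for it gave -0.43. Cfap65, a protein of cilia and flagella, was not well above background on any LFD array and was at least 2.19-fold higher in HFD + inul PB. Diras2, a small GTPase, and Myom3, a muscle structural protein, rose by 1.63 ± 0.39 and 1.55 ± 0.29.

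Falls at the same strict criteria numbered 133, and the largest was that of Chac1, an enzyme that degrades glutathione and is switched on when amino acids run short. Chac1 measured 6.05, 6.61, 6.18, 6.90 and 6.17 on HFD + inul PB 1 to 5 and 9.02, 7.82, 8.00, 10.42 and 10.37 on LFD 1 to 5. HFD + inul PB arrays lay close together and all below the LFD arrays, which spread over more than 2 units. The difference was -2.75 ± 0.44, a 6.71-fold fall (adjusted P = 0.0046), and -2.42 without LFD 4. B3galt5, which builds sugar chains on glycoproteins, fell 6.56-fold (-2.71 ± 0.60, adjusted P = 0.0285), from between 10.12 and 12.22 in LFD to between 7.54 and 9.19 in HFD + inul PB. Il1rl1, the receptor for interleukin-33, read 7.60, 7.47, 7.73, 7.70 and 7.52 in HFD + inul PB and 10.70, 9.71, 9.66, 8.19 and 9.73 in LFD. It was even across HFD + inul PB and fell 3.99-fold (adjusted P = 0.0148), with LFD 4 the nearest of its diet. Further down the list, Rbp7, a retinol-binding protein, fell by 2.06, Ankrd22 by 2.04, Prss12, a secreted protease, by 1.86, and Tgm5, a transglutaminase, by 1.70. Sval1 fell by 2.40 and Depp1 by 1.73. Colec11, a lectin that binds microbial sugars, was not well above background on any HFD + inul PB array and was at least 2.01-fold lower there.

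**Figure D1:**
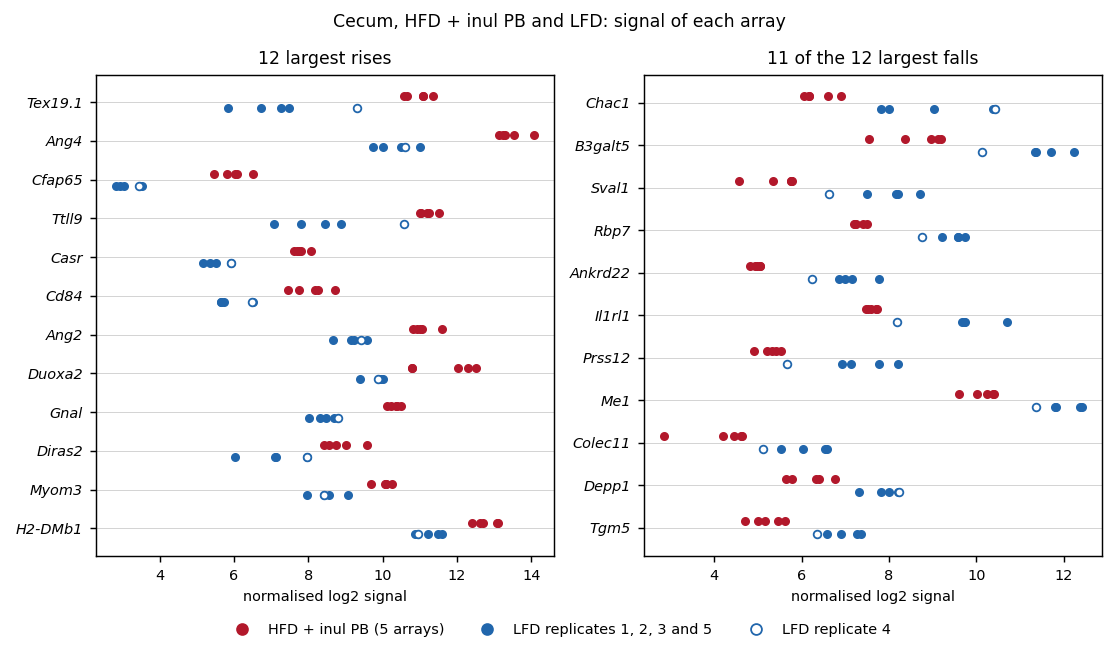
Log2 signal (horizontal axis) on each HFD + inul PB array and each LFD array for the 12 genes with the largest rises and 11 of the 12 with the largest falls at the strict criteria, 1 gene per line, with LFD 4 drawn as an open symbol. The diets do not overlap for any gene shown because the criteria required it. For Tex19.1 and Ttll9 the LFD 4 symbol is the LFD point nearest to HFD + inul PB.

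A group of antigen presentation genes rose together. MHC class II molecules display peptides of ingested or microbial origin to helper T cells. Their alpha and beta chains (H2-Aa, H2-Ab1, H2-Eb1) assemble with the invariant chain Cd74, and H2-DMa and H2-DMb1 exchange its remnant for a peptide. All are controlled by the regulator Ciita. Of 7 genes measured, 6 rose and 0 fell, where 1.21% of all known genes rose. Of these, 4 passed also after adjustment, and for 6 the diets did not overlap. The median difference was 1.41, and 1.38 with the same 6 genes counted as higher without LFD 4.

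H2-Ab1 measured 16.17, 15.92, 16.32, 15.82 and 16.34 on HFD + inul PB 1 to 5 and 14.83, 15.21, 14.63, 14.68 and 14.57 on LFD 1 to 5. The lowest HFD + inul PB array was above the highest LFD array. The rise was 1.33 ± 0.30, or 2.51-fold (adjusted P = 0.0322), and 1.02, 1.70 and 1.45 within slides 1, 2 and 3. H2-DMb1 measured 12.70, 12.61, 13.07, 12.40 and 13.10 in HFD + inul PB and 11.23, 11.60, 11.50, 10.95 and 10.86 in LFD. It rose 2.93-fold (1.55 ± 0.36, adjusted P = 0.0397). For this gene too the diets were fully apart. Cd74 rose by 1.46 ± 0.35 (adjusted P = 0.0452) and H2-DMa by 1.41 ± 0.33 (adjusted P = 0.0404). H2-Aa and H2-Eb1 rose by 1.64 ± 0.42 and 0.97 ± 0.28, with adjusted P of 0.0589 and 0.0904. Ciita did not pass (0.78 ± 0.28, adjusted P = 0.193), and its values of 6.61 to 7.54 in HFD + inul PB overlapped those of 6.08 to 6.72 in LFD.

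Cells that carry MHC class II in the gut include B cells, macrophages and, when stimulated, the epithelium. Of 9 B and plasma cell markers, 0 passed the LIMMA criteria (1 had an unadjusted P under 0.05), with a median of 0.04 and a mean signal of 7.53 to 7.78 in HFD + inul PB and 7.08 to 7.86 in LFD. The 6 macrophage markers gave 0 passing and 0 at an unadjusted P under 0.05, a median of -0.11, and mean signals of 9.19 to 9.45 and 9.15 to 9.67. Of 8 T cell markers, 0 passed and 1 had an unadjusted P under 0.05, with a median of 0.03. Which cells the rise in MHC class II genes came from was not tested, and these markers cannot tell.

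The promoters of this group are shown because its genes moved together and because promoters of MHC class II genes are known for shared boxes of sequence. RefSeq promoter entries (build GRCm38.p6) existed for 4 of the 7 genes. The stretches below run from 130 to 11 bases before the transcription start of 3 of these genes, on the gene's own strand. Capitals mark TGATTGG, which holds the reverse complement of CCAAT, and AACTGATGATGCT, the longest run of bases that the H2-DMb1 and H2-Eb1 entries share before the start. These motifs were picked after the sequences had been read.

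H2-DMb1, chr17:34153061-34153180, plus strand: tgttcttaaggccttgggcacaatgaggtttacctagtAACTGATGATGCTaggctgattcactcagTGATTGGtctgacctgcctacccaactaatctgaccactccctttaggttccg
H2-Aa, chr17:34287834-34287953, minus strand: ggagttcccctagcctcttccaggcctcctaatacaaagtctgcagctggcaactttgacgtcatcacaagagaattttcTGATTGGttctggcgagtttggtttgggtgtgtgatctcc
H2-Eb1, chr17:34305737-34305856, plus strand: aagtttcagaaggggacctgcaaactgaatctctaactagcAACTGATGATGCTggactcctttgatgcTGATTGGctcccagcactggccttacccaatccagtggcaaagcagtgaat

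TGATTGG began 63, 50 and 61 bases before the start in H2-DMb1, H2-Aa and H2-Eb1. Over all promoter entries, searched on both strands in windows from 250 bases before to 50 after the start, 2568 of 32851 (7.82%) held it. The longer run was found in 3 of 32851 entries (0.00913%), among them H2-DMb1 and H2-Eb1, where it began 92 and 89 bases before the start. It was taken from the entries of H2-DMb1 and H2-Eb1, so their matches were fixed in advance. The motifs do not overlap. H2-DMa, which rose as well, held neither sequence in its windows.

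Goblet cell genes fell. Of 16 measured, 0 rose and 11 fell, where 1.91% of all known genes fell. After adjustment 11 of the 16 passed, and the median was -0.81. For 12 of them the diets did not overlap, and 12 fell without LFD 4. The mean log2 signal of the 16 genes was 12.87 to 13.11 in HFD + inul PB and 13.39 to 13.99 in LFD, with LFD 4 the lowest LFD array.

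Muc2, the gel-forming mucin that builds the mucus layer of the large bowel, measured 13.58, 13.77, 13.58, 13.67 and 13.83 on HFD + inul PB 1 to 5 and 14.98, 15.63, 14.40, 14.33 and 14.78 on LFD 1 to 5. HFD + inul PB arrays kept within a narrow band below all LFD arrays. The fall was -1.14 ± 0.24, or 2.20-fold (adjusted P = 0.0232). Within slides 1, 2 and 3 the difference was -1.63, -0.82 and -0.81. Zg16, a lectin of the mucus that binds the wall of Gram-positive bacteria, measured 16.90, 17.05, 16.87, 16.77 and 16.94 in HFD + inul PB and 17.65, 17.80, 17.83, 17.56 and 17.69 in LFD. The diets were apart, and Zg16 fell by 0.80 ± 0.14 (adjusted P = 0.00766).

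The transcription factors that specify secretory cells were among those that fell. Atoh1, which commits a cell to the secretory lineage, fell by 0.81 ± 0.13 (adjusted P = 0.00463) and Spdef, which drives goblet cell maturation, by 0.99 ± 0.20 (adjusted P = 0.0206). Agr2, a folding enzyme needed to make mucin, fell by 1.19 ± 0.23, and Ern2, the goblet cell sensor of protein folding stress, by 0.85 ± 0.14. Bcas1 had the lowest P of the group (-0.93 ± 0.11, adjusted P = 0.000365), with 10.16 to 10.46 in HFD + inul PB and 10.96 to 11.52 in LFD. Fcgbp, a large protein of the mucus, fell by 0.61 (a fold under 1.5 without HFD + inul PB 4, LFD 2 or LFD 3, at -0.55 to -0.58), Sytl2 by 0.87, Tpsg1 by 1.18 and Rep15 by 0.69. Not every goblet cell product moved this way. Tff3, the trefoil peptide, gave -0.37 ± 0.14 (adjusted P = 0.225), and Clca1, a metalloprotease that processes mucus, gave 0.28 ± 0.22 (adjusted P = 0.675). Spink4 gave -0.56, a fold under 1.5, and Retnlb and Creb3l1 gave -0.33 and -0.16.

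Mucins anchored in the cell membrane did not follow Muc2. Of 5 measured, 1 rose and 0 fell, with a median of 0.10. The riser, Muc4, measured 14.63, 14.58, 14.87, 14.88 and 14.90 in HFD + inul PB and 13.54, 13.34, 13.20, 14.67 and 13.56 in LFD. The diets overlapped through LFD 4 alone, and the rise was 1.11 ± 0.29 (adjusted P = 0.0636). A second Muc4 probe rose by 1.05.

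**Figure D2:**
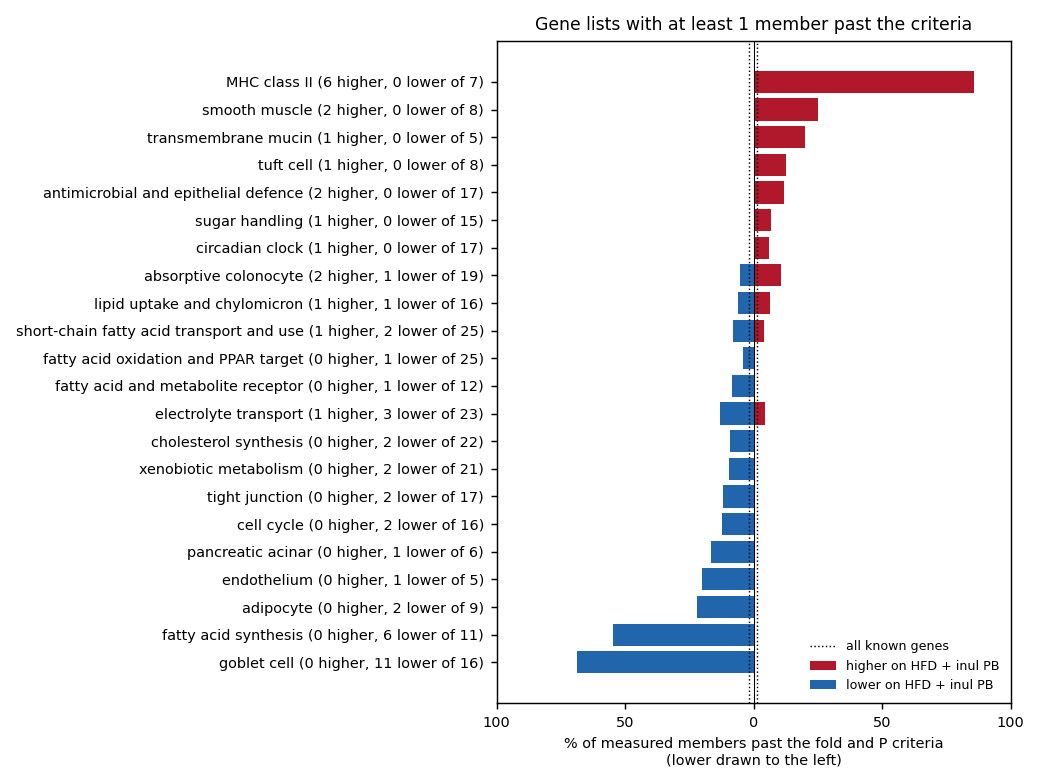
Percentage of the measured genes that met both criteria (horizontal axis) in each gene group with at least 1 such gene. The group of genes named in the paper and the groups drawn up after the values had been seen are left out. Bars run to the right where higher and to the left where lower in HFD + inul PB. Dotted lines mark the percentages for all known genes (1.21% higher and 1.91% lower). Of the groups drawn, MHC class II (6 of 7 higher) has the longest bar to the right and goblet cell (11 of 16 lower) the longest to the left.

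Absorptive cell genes met both criteria more often than all known genes did (15.8% against 3.12%). Of 19 measured, 2 rose and 1 fell, with a median of 0.17. For 7 of the 19 the diets did not overlap, against 9.63% of known genes. The mean over the group was 14.36 to 14.56 in HFD + inul PB and 14.16 to 14.27 in LFD. Car4, a membrane carbonic anhydrase, measured 14.30, 14.44, 14.79, 14.57 and 14.82 in HFD + inul PB and 13.18, 13.33, 13.63, 13.82 and 13.30 in LFD, and rose by 1.13 ± 0.18 (adjusted P = 0.00373). Slc5a8, the sodium-coupled carrier for butyrate, propionate and lactate, measured 11.61, 11.54, 11.59, 11.63 and 11.48 in HFD + inul PB and 10.56, 10.08, 10.19, 10.96 and 10.32 in LFD. It rose by 1.14 ± 0.26 (adjusted P = 0.0365). For both genes the diets were apart, and Slc5a8 was nearly level across the HFD + inul PB arrays. Hsd11b2, which shields the mineralocorticoid receptor from glucocorticoids, fell by 0.80 ± 0.23 (adjusted P = 0.0884). Slc26a3, the chloride and bicarbonate exchanger, did not pass (0.68 ± 0.27, adjusted P = 0.267), although its values of 15.25 to 15.34 in HFD + inul PB lay above those of 14.23 to 15.02 in LFD. Among 23 electrolyte transport genes, which include Car4 and Hsd11b2, 1 rose and 3 fell. The other two that fell were Scnn1a, a subunit of the epithelial sodium channel (-0.62 ± 0.19), and Best2, a bicarbonate channel of goblet cells (-0.97 ± 0.33), with adjusted P of 0.11 and 0.161. Best2 kept its call only without HFD + inul PB 2, and gave -0.81 to -1.01 without any other array.

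Enzymes that use short-chain fatty acids mostly stayed within the criteria. Of 25 genes for their transport and use, Slc5a8 rose and 2 fell, with a median of 0.05. Acsm3, a mitochondrial acyl-CoA synthetase, fell by 1.31 ± 0.20 (adjusted P = 0.00276), from 9.81 to 10.80 in LFD to 8.70 to 9.01 in HFD + inul PB. Oxct1, needed to burn ketone bodies, fell by 0.77 ± 0.25 (adjusted P = 0.141), but missed the P criterion without HFD + inul PB 3 or 4 or LFD 1 or 2 (-0.65 to -0.77). Slc16a1, the proton-coupled carrier of the same acids, gave 0.08. Of 12 receptors for fatty acids and metabolites, 1 fell. This was Ffar2, a receptor for short-chain fatty acids (-0.80 ± 0.24, adjusted P = 0.107), with 7.61 to 8.22 in HFD + inul PB and 8.21 to 9.40 in LFD. It missed the P criterion without HFD + inul PB 5 (-0.70) or LFD 2 (-0.65). Ffar3, the related receptor, gave 0.18 ± 0.17.

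Genes of fatty acid synthesis were lower with HFD + inul PB. Of 11 measured, 0 rose and 6 fell. Of the 11, 6 passed after adjustment, in 4 the diets did not overlap, and the median was -0.64. Without LFD 4 the number that fell was again 6. Me1, the malic enzyme that supplies reducing power for fat synthesis, measured 10.39, 10.24, 10.01, 10.40 and 9.60 on HFD + inul PB 1 to 5 and 11.79, 12.41, 12.38, 11.37 and 11.81 on LFD 1 to 5. The diets were apart, and the fall was -1.82 ± 0.28, or 3.54-fold (adjusted P = 0.00327). Fasn, fatty acid synthase itself, measured 8.06, 8.39, 8.06, 8.36 and 8.26 in HFD + inul PB and 8.91, 9.60, 9.68, 8.54 and 8.97 in LFD, and fell by 0.91 ± 0.21 (adjusted P = 0.0326). LFD 4 was the lowest LFD array and yet above all HFD + inul PB arrays. Acaca, the enzyme that commits carbon to fat, fell by 0.64 ± 0.15 (adjusted P = 0.0397), and Acly, the step before it, gave -0.46 ± 0.10 (adjusted P = 0.0285), a fold under 1.5.

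Scd1, which introduces a double bond into fatty acids, had the largest fall of this group but its diets overlapped. It measured 8.61, 8.81, 8.51, 10.62 and 9.28 in HFD + inul PB and 12.62, 12.97, 13.49, 10.31 and 12.96 in LFD. LFD 4 lay below HFD + inul PB 4, and all other LFD arrays lay above every HFD + inul PB array. The fall was -3.31 ± 0.76, or 9.90-fold (adjusted P = 0.0341), and -3.85 without LFD 4. Thrsp, an inducer of fat synthesis, fell by 3.19 ± 0.97 (adjusted P = 0.114), and by 4.13 without LFD 4, which was at 6.997 against 11.08 to 12.59 on the other LFD arrays. Scd2, a relative of Scd1, fell by 1.05 ± 0.24 (adjusted P = 0.0345). The number that fell was 4 without LFD 2 and 4 without LFD 3, since Acaca (-0.52 and -0.56) and Thrsp (-2.86 and -2.74) then missed the criteria.

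Fat cell genes moved on the same arrays. Of 9 measured, 2 fell (Lpl, -1.63, and Fabp4, -2.64), 6 fell without LFD 4, and in 0 of them were the diets apart. Their median was -2.64, or -3.35 without LFD 4. Neither Lpl nor Fabp4 passed without LFD 1, 2, 3 or 5 or without HFD + inul PB 1, 2, 3 or 5, with differences of -1.46 to -1.62 and of -2.26 to -2.62. Adipoq, which fat cells secrete, measured 2.86, 3.88, 2.72, 10.09 and 8.08 in HFD + inul PB and 11.50, 11.98, 13.05, 2.50 and 11.95 in LFD (-4.67, adjusted P = 0.343). LFD 4 was thus as low as the lowest HFD + inul PB arrays, and HFD + inul PB 4 and 5 were well above the others of their diet. The mean over the 9 genes was 6.93, 7.26, 6.69, 10.27 and 8.75 in HFD + inul PB and 11.10, 11.69, 12.64, 6.71 and 11.56 in LFD. Cd36, a fatty acid carrier of fat cells, vessels and gut lining, fell by 2.14 ± 0.66 (adjusted P = 0.121) with LFD 4 at 7.19 against 9.25 to 10.15 on the other LFD arrays, and missed the P criterion without LFD 3, LFD 5 or HFD + inul PB 5 (-1.88 to -2.04). The part of attached fat in the falls of Scd1, Thrsp, Cd36 and the other fatty acid synthesis genes was not tested.

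**Figure D3:**
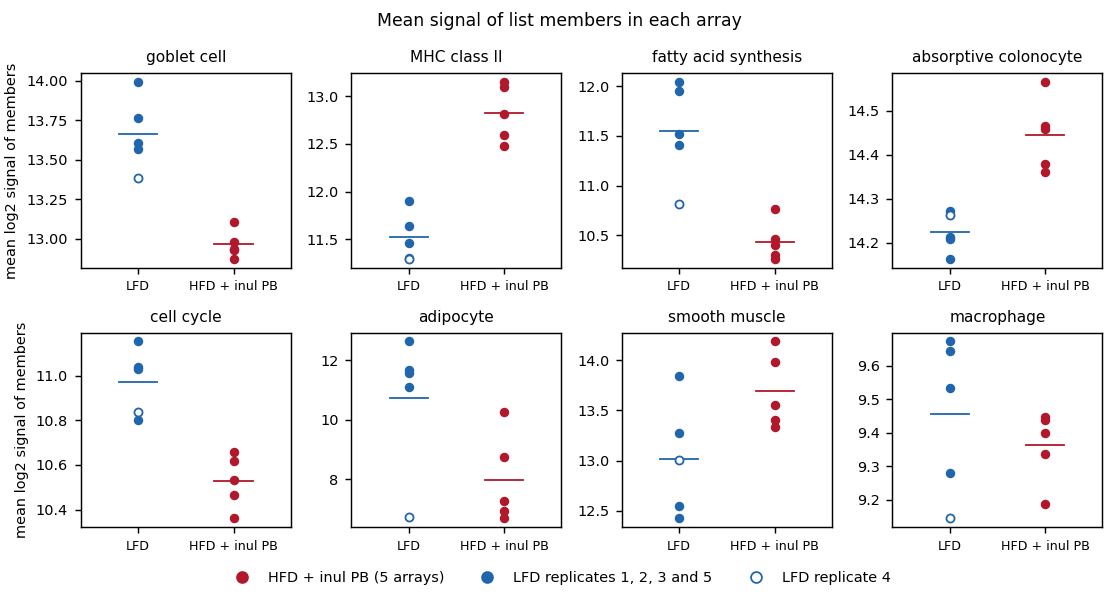
Mean log2 signal over the measured genes of each of 8 gene groups (vertical axis) on each array of LFD and HFD + inul PB, with LFD 4 drawn as an open symbol. The diets are apart for the goblet cell, MHC class II, absorptive cell, cell cycle and fatty acid synthesis groups, and overlap for the fat cell, smooth muscle and macrophage groups.

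Smooth muscle genes gave a positive difference for all 8 measured, with a median of 0.64, and 2 rose, or 0 without LFD 4. These were Actg2 (1.04 ± 0.35) and Des (1.03 ± 0.36), with adjusted P of 0.161 and 0.181, and neither passed without LFD 1, LFD 4, LFD 5, HFD + inul PB 1 or HFD + inul PB 4 (0.86 to 1.07 for Actg2 and 0.84 to 1.02 for Des). Des did not pass without HFD + inul PB 5 either (1.07). The mean over the group was 13.33 to 14.18 in HFD + inul PB and 12.43 to 13.84 in LFD. Cholesterol synthesis genes gave mostly negative differences. Of 22 measured, 0 rose and 2 fell (among them Insig1, a sterol sensor, by 0.82), where 1.91% of all known genes fell. The median was -0.22, and 3 fell without LFD 4. A positive difference was seen for 4 of the 22, and 7 had an unadjusted LIMMA P under 0.05.

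Of 17 tight junction genes, 0 rose and 2 fell, with a median of 0.04 (2 of the 17 had an unadjusted LIMMA P under 0.05). Cldn8, a sealing claudin of the large bowel, measured 8.57, 8.25, 8.75, 7.30 and 8.27 in HFD + inul PB and 9.68, 9.19, 9.62, 9.97 and 9.82 in LFD. It fell by 1.43 ± 0.29 (adjusted P = 0.0195). Cldn4 measured 10.31, 9.66, 9.15, 9.73 and 9.55 in HFD + inul PB and 11.37, 10.35, 10.94, 10.70 and 10.87 in LFD, and fell by 1.17 ± 0.28 (adjusted P = 0.045). For both claudins the diets were apart, narrowly so for Cldn4. Cldn5, the claudin of vessel walls, gave -0.69 ± 0.38 (adjusted P = 0.483), and Cldn23 gave 0.28 ± 0.18.

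Among 17 genes of antimicrobial and epithelial defence, Ang4 and Duoxa2 rose and 0 fell, with a median of 0.19. The acute phase genes Saa1 and Saa2 gave 0.55 ± 0.40 and 0.61 ± 0.38 (adjusted P = 0.644 and 0.576), and their diets overlapped. Reg3b, an antibacterial lectin, could not be judged from these arrays. It ranged from 6.40 to 15.30 in HFD + inul PB and from 5.58 to 15.14 in LFD. Reg3g, its close relative, was likewise between 8.04 and 14.78 and between 7.04 and 14.44.

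A pair of glutathione transferases, which attach glutathione to toxins, fell. Of 21 xenobiotic metabolism genes, 0 rose and 2 fell, with a median of -0.13. Gsta4 measured 9.15, 8.88, 9.22, 9.05 and 8.90 in HFD + inul PB and 10.11, 9.96, 10.13, 9.79 and 9.96 in LFD, and fell by 0.95 ± 0.11 (adjusted P = 0.000218). The arrays of each diet lay close together and the diets were apart. Gsta3 fell by 1.13 ± 0.15 (adjusted P = 0.00098). Glutathione transferases of this class are similar in sequence, so the share of each in these signals is uncertain.

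Cell cycle genes gave a negative difference for all 16 measured, with a median of -0.46, and 2 passed the criteria, or 3 without LFD 4. The 2 were Top2a (-0.64 ± 0.17, adjusted P = 0.0737), which untangles DNA, and Mcm5 (-0.65 ± 0.20, adjusted P = 0.114), part of the replication helicase. Top2a was under the fold criterion without LFD 5 (-0.57), and Mcm5 missed both without LFD 2 (-0.56). Top2a was also under it with another background correction (normexp), with none, and in the authors' values (-0.55 to -0.56). The mean over the group was 10.36 to 10.66 in HFD + inul PB and 10.80 to 11.15 in LFD, with no overlap. Lgr5, a marker of intestinal stem cells, gave -0.51 ± 0.11 (adjusted P = 0.0298), a fold under 1.5, and 0 of 6 stem cell markers passed the LIMMA criteria (1 had an unadjusted P under 0.05).

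Single genes rose in other groups. Arrdc4, a sugar-responsive gene that removes glucose carriers from the membrane, rose by 1.12 ± 0.16 (adjusted P = 0.00232) and was the only one of 15 sugar handling genes to pass. Alox5, which makes leukotrienes in tuft cells and leukocytes, rose by 0.67 ± 0.14 (adjusted P = 0.0216), the only one of 8 tuft cell markers. Slc27a4, a fatty acid carrier, rose by 0.60 ± 0.13 (adjusted P = 0.0285) and Cry2, a clock gene, by 0.62 ± 0.17 (adjusted P = 0.0817). Both were under the fold criterion when any of 3 arrays was left out, HFD + inul PB 5, LFD 1 or LFD 2 for Slc27a4 (0.54 to 0.55) and HFD + inul PB 4, LFD 1 or LFD 5 for Cry2 (0.55 to 0.57). Alox5, Slc27a4 and Cry2 were also under it with another background correction (normexp), with none, and in the authors' values (0.46 to 0.58). Tek, a receptor of vessel walls, fell by 0.94 ± 0.31 (adjusted P = 0.158), a call lost without any array but HFD + inul PB 1 or LFD 4 (-0.85 to -0.96). Amy2a5, a pancreatic amylase, was not well above background on any HFD + inul PB array and lost its call without any array but LFD 4. The respiratory chain had 0 of 54 genes past the LIMMA criteria and 6 with an unadjusted P under 0.05, with a median of -0.02. The LIMMA criteria also gave 0 genes in the groups for enteroendocrine cells (3 of 12 at an unadjusted P under 0.05, and 1 past the criteria without LFD 4), the unfolded protein response (0 of 12) and the interferon response (1 of 13).

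A last group held the genes named in the paper, which were chosen on these samples and are not independent evidence. Of the 16 with a probe, Tex19.1, Slc5a8 and Muc4 rose and Muc2, Cldn4 and Ffar2 fell. Cfd, a protease of fat cells, gave -4.60 ± 2.41 (adjusted P = 0.459), with LFD 4 at 3.36 and the other LFD arrays at 14.38 to 15.86. Enho gave 0.26 ± 0.30, and Ube2d2a, the reference gene of the PCR, gave 0.06 ± 0.07.

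The nearest comparisons, made in the same model, separate part of what HFD + inul PB and LFD do not share. Between HFD + inul PB and HFD + inulin, which have the same fat content and the same share of added fiber by weight, 447 probe IDs (0.803%) met both criteria and 12 (0.0216%) had an adjusted P under 0.05. Between HFD and LFD, neither of which has added fiber, 356 (0.639%) met both criteria. The 3 comparisons share arrays, so their values are given side by side for single genes.

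The ribonucleases differed between the fiber diets. Ang4 averaged 13.45 ± 0.37 (SD, n = 5) on HFD + inul PB, 10.36 ± 0.45 (n = 6) on HFD + inulin, 10.13 ± 0.80 (n = 6) on HFD and 10.37 ± 0.49 (n = 5) on LFD. HFD + inul PB exceeded HFD + inulin by 3.09 ± 0.33 (adjusted P = 0.000153). The other three diets lay within their spread of each other, and HFD differed from LFD by -0.25 ± 0.33. Ang2 was likewise higher on HFD + inul PB than on HFD + inulin, by 1.86 (adjusted P = 8.92e-05). Mt1, a metallothionein that binds zinc, went the other way. It averaged 13.71 on HFD + inul PB, 14.85 on HFD + inulin, 14.52 on HFD and 14.51 on LFD, and was lower on HFD + inul PB than on HFD + inulin (-1.14 ± 0.15, adjusted P = 0.00195). In that comparison 5 of the 19296 known genes (0.0259%) had an adjusted P under 0.05, namely Ang, Ang2, Ang4, Mt1 and Mt2.

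For most other genes the difference between the fiber diets did not pass. Slc5a8 averaged 11.57 on HFD + inul PB, 11.46 on HFD + inulin, 10.16 on HFD and 10.42 on LFD, and the fiber diets differed by 0.11 ± 0.25. Muc2 averaged 13.69, 14.04, 14.96 and 14.82 in the same order, and the fiber diets differed by -0.35 ± 0.23 (adjusted P = 0.85). Zg16 differed between them by -0.53 ± 0.13 (adjusted P = 0.343). Neither Slc5a8, Muc2 nor Zg16 passed between HFD and LFD, where the differences were -0.27 ± 0.25, 0.14 ± 0.23 and 0.20 ± 0.13. These adjusted P values do not show that the diets act alike.

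Between the diets without added fiber, Me1 and Fasn met both criteria but did not pass after adjustment. Me1 averaged 10.13 on HFD + inul PB, 9.88 on HFD + inulin, 10.89 on HFD and 11.95 on LFD, with a difference of -1.06 ± 0.27 between HFD and LFD (adjusted P = 0.667). Fasn averaged 8.23, 8.28 and 8.18 on the high-fat diets in the same order and 9.14 on LFD, and HFD was below LFD by -0.96 ± 0.20 (adjusted P = 0.599). H2-Ab1 averaged 16.11 on HFD + inul PB, 15.77 on HFD + inulin, 15.51 on HFD and 14.79 on LFD. Its difference was 0.34 ± 0.29 between the fiber diets (adjusted P = 0.882) and 0.72 ± 0.29 between HFD and LFD (adjusted P = 0.839). Tex19.1 was highest on HFD + inul PB at 10.95, followed by HFD + inulin at 9.59, LFD at 7.33 and HFD at 5.83. Chac1 ran in another order, from 6.38 on HFD + inul PB through 6.87 on HFD + inulin and 7.61 on HFD to 9.13 on LFD. Between HFD + inulin and LFD, Tex19.1 differed by 2.27 ± 0.57 (adjusted P = 0.139) and Chac1 by -2.26 ± 0.42 (adjusted P = 0.0302).

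**Figure D4:**
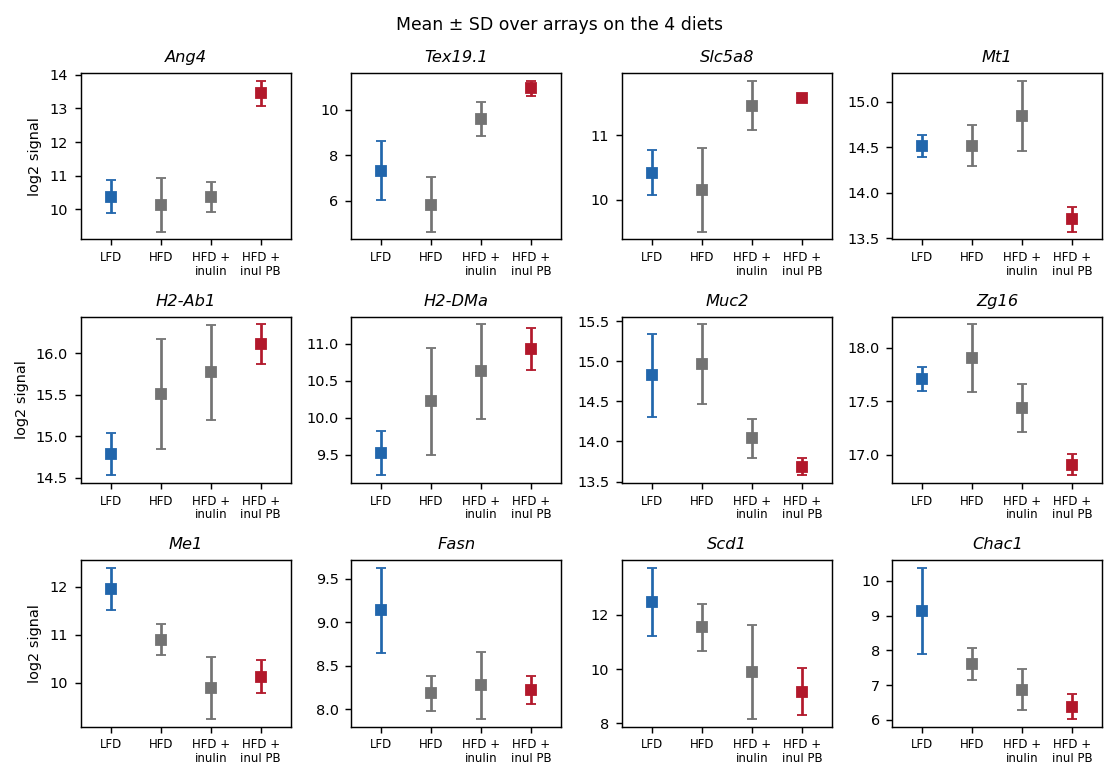
Mean log2 signal with SD (vertical axis) on each of the 4 cecum diets for 12 genes, from 6 arrays each of HFD and HFD + inulin and 5 each of HFD + inul PB and LFD. Ang4 is high on HFD + inul PB alone. The mean of Slc5a8 is higher, and that of Muc2 lower, on both fiber diets than on both fiber-free diets. The mean of Fasn is higher on LFD than on the other diets.

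The arrays of each diet were spread over 3 slides. All genes described above as rising or falling by the fold and P criteria kept the sign of their difference within each of the 3 slides. Where the diets did not overlap the sign could not differ, and slide 2 held only 1 array of each diet. For 27, 51 and 28 of 104 genes, the difference within slides 1, 2 and 3 was a pooled SD of the 2 diets or more away from the main one. Of 104 genes whose calls were recomputed, Actg2, Des, Best2 and Trib3 lost theirs without LFD 4, and each of the others kept it. With slide as a block in the model, 1301 probe IDs met both criteria.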

How the data were processed

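The authors deposited for each array the spot intensity on a linear scale from Agilent Feature Extraction 10.7.3.1, as a processed signal with local background subtracted, a median signal and a median background. They also deposited a log2 table of the same arrays after cyclic loess. Here control spots and outlier spots were left out, the log2 processed signal was normalised by cyclic loess (span 0.7) over the 22 cecum arrays, and the mean was taken over spots of the same probe. Then LIMMA (limma 3.58.1 in R 4.3.3) fitted all 4 cecum diets in one model with empirical Bayes moderation. Adjusted P are Benjamini-Hochberg values over 55681 probes. The number of arrays limits the precision.

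Names came from accessions matched to RefSeq genes (assembly GRCm38.p6, used for names because the array design is older), which gave 27503 probes a symbol. Genes named were the 12 largest rises and 12 largest falls at the strict criteria, up to 4 genes of lowest P in each of 38 gene lists and the genes the paper names, with others added for context. One of the 12 falls is not reported here. All members and lists were chosen with earlier results of these data known, and 7 further lists were added after the values had been seen. Where no array of a diet had a probe well above background, its fold is a bound, computed against the lowest signal well above background of each array.

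The main model did not pair arrays by replicate number. Same-numbered HFD + inul PB and LFD arrays shared a slide, a slide row and a scan day. Of 5 such pairs, 1 deviated together with a correlation over 0.1. Alternatives were other normalisations and backgrounds, blocks, subsets of arrays or probes and each array left out. The study removed 1 cecum array of each of these diets; those are not analysed here. No sample column was left unused (0).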

Additional observations from a re-analysis of the deposited data

Results flagged for a closer look

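For each gene past the criteria or named by rule, and each gene group, the 5 arrays of a diet were checked for 1 array far from the other 4. Of 298 such groups of 5, 14 had an array whose gap to its nearest neighbour exceeded 0.71 of the whole range. Chance gives about 1 in 20 for independent groups of 5, and this number is no larger. The genes were chosen for their difference and the gene groups share members with them, so that rate is only a rough guide. The values below are listed for inspection only.

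LFD 4 was the array in 6 of these. It was low for Scd1 (10.31, others 12.62 to 13.49), for Thrsp (6.997, others 11.08 to 12.59), for the fat cell group (mean 6.71, others 11.10 to 12.64) and for the mucin glycosylation group (mean 10.73, others 10.94 to 11.03). It was high for Muc4 (14.67, others 13.20 to 13.56) and Mtf1, a zinc-sensing transcription factor (9.88, others 9.53 to 9.56). LFD 5 was low for Duoxa2 (9.39, others 9.87 to 10.01).

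HFD + inul PB 4 was high for the fat cell genes Lpl (11.15, others 10.29 to 10.47) and Fabp4 (12.81, others 10.64 to 11.04). HFD + inul PB 5 was high for the zinc exporter Slc30a1 (12.59, others 11.95 to 12.10), the antimicrobial defence group (mean 11.82, others 10.69 to 10.84) and the lipid uptake group (mean 9.82, others 7.59 to 8.19). HFD + inul PB 3 was low for Colec11 (2.86, others 4.21 to 4.63) and Klk1b3, a kallikrein (13.46, others 13.78 to 13.88).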

How the results depend on the processing

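No difference of the 104 genes recomputed changed sign under any of 23 alternatives with a test. None did within a slide either, where genes with non-overlapping diets could not. Between 0 and 22 of the 104 lost their call under an alternative, most without LFD 2. The 24 genes of largest change kept theirs except Colec11 with normexp (-0.57) and with the replicate block. The number of probe IDs meeting both criteria was 593 with normexp, 702 without background correction and 701 from the authors' table, and 1008 to 1545 when 1 array was left out. For these settings in the same order, HFD + inul PB against HFD + inulin gave 114, 163 and 159, and HFD against LFD 121, 149 and 151. With only probes well above background these gave 263 and 172, and with 1 array left out 378 to 481 and 242 to 597. The number with an adjusted P under 0.05 was 307 with 75th percentile scaling and 1456 with only probes well above background. It was 2085 with both the loess and the fit on the 10 arrays alone, and 2035 with only the fit on those arrays. The replicate block, also fitted to the 10 arrays alone, gave 8, and leaving 1 array out gave 152 to 763. The cause of these shifts was not tested, except that the fits with fewer arrays or probes differ by construction. With the replicate block, 1236 probe IDs met both criteria and 3 fatty acid synthesis genes fell. Same-numbered arrays of these diets shared a slide, a slide row and a scan day. They deviated together with correlations of 0.01 to 0.12, and 2 of 5 HFD + inul PB arrays were closest to their own number. The labels do not say whether the numbers also pair the mice, and these correlations cannot settle it. With 1 array left out, 10 to 12 goblet cell genes fell, 4 to 6 fatty acid synthesis genes fell and 6 to 7 MHC class II genes rose. Normexp used the median signal because the files read here held no mean signal. Probes below background, which include most of the long non-coding RNA regions, have the least precise differences.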

Other observations

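Genes that cells switch on when amino acids run short were lower in HFD + inul PB. The lists in these paragraphs were drawn up after the values had been seen, so their counts are descriptions only. Of 20 such genes, 8 fell and 1 rose, with a median of -0.55. Besides Chac1, these included Asns, asparagine synthetase, which measured 10.48, 10.66, 10.33, 10.58 and 10.46 in HFD + inul PB and 11.67, 11.67, 11.16, 11.51 and 11.89 in LFD (-1.08 ± 0.19, adjusted P = 0.0109). The diets were apart for Asns. Nupr1, a stress-induced nuclear protein, fell by 1.13 ± 0.21 (adjusted P = 0.0147). Sesn2, a leucine sensor, rose by 0.79 ± 0.16 (adjusted P = 0.0204). Among the genes that fell, Phgdh lost its call without any array but HFD + inul PB 2 or LFD 4 (-0.77 to -0.85), and with normexp (-0.71). Trib3 lost its call without LFD 4 (-0.93) or LFD 5 (-0.92), and Mthfd2 with normexp (-0.55). Of 31 DNA replication genes, 7 fell (8 without LFD 4) and 0 rose, with a median of -0.36 and Rfc2 as the only positive difference. Dna2 fell by 1.00 and Rfc3 by 0.98 (adjusted P = 0.00262 and 0.00901), although Dna2 was under the fold criterion with normexp (-0.58). Pole2 (-0.54) and Clspn (-0.26) were also under it with normexp, and Prim1 without LFD 2 (-0.53). Clspn was under it too without background correction (-0.37) and in the authors' values (-0.38). In these settings and with normexp, Mcm7 missed the P criterion (-0.73 to -0.74). It also missed it without HFD + inul PB 3, 4 or 5 or LFD 2 or 5 (-0.58 to -0.70).

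Of 9 genes of metallothioneins and zinc handling, 2 rose and 3 fell. Mt1 measured 13.87, 13.71, 13.78, 13.50 and 13.67 in HFD + inul PB and 14.55, 14.51, 14.33, 14.68 and 14.49 in LFD (-0.81 ± 0.16, adjusted P = 0.0173), and Mt2 fell by 1.02 ± 0.25 (adjusted P = 0.0487). The zinc exporter Slc30a1 rose by 0.61, but was under the fold criterion without HFD + inul PB 5 (0.49), LFD 1 (0.57) or LFD 5 (0.58) and with normexp, no background correction or the authors' values (0.58 in each). Mtf1, a zinc-sensing transcription factor, rose by 0.66, and the zinc importer Slc39a10 fell by 0.80, though by less than the fold criterion with normexp (-0.39), without background correction (-0.45) and in the authors' values (-0.45). Slc39a10 missed the P criterion when only the 10 arrays were normalised or fitted. All 10 MHC class I genes gave a positive difference, with a median of 0.51, and only the immunoproteasome subunit Psmb8 rose (1.07 ± 0.22, adjusted P = 0.0201), where 2 genes rose without LFD 4. Of 20 enzymes of mucin glycosylation, 4 fell and 0 rose. Among them were St6gal1, a sialyltransferase, and Chst4, a sulfotransferase, which fell by 1.05 and 0.88. Tissue kallikreins, which are near-identical in sequence and cannot be told apart by these probes with certainty, fell in 7 of 10 cases. All 7 were under the fold criterion without LFD 2 (-0.47 to -0.56), and so were Klk1b3, Klk1b8 and Klk1b24 without HFD + inul PB 3 (-0.56 to -0.58) and Klk1b24 without LFD 1 (-0.58).

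Probes for long non-coding RNA regions, which make up a large part of the array, were also compared. Of 16194, 207 (1.28%) met both criteria, 134 of them higher, and 26.0% were well above background on each array of 1 or both diets. For probes of known genes these shares were 3.03% and 66.6%.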
